A study of Mus musculus with 4 samples.

Results

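Migratory dendritic cells were chosen in 4 single-cell libraries of mouse nasal mucosa by their raw UMI counts (a UMI, or unique molecular identifier, marks 1 captured RNA molecule). A cell was a member if it held at least 1 UMI of Ccr7 and at least 1 of Fscn1, at least 4 UMIs over Ccr7, Fscn1, Cacnb3 and Ccl22 together, fewer than 2 UMIs over the complement genes C1qa, C1qb and C1qc, and 0 UMIs of Cd3e, Cd79a, Cxcr2 and Siglech. This gave 299 members among 72320 cells that passed the limits on quality, of 79132 deposited. Levels of these 11 genes were therefore fixed or pushed by the choice of cells and are given below as a description only.

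The study is on allergic rhinitis in C57BL/6 mice aged 8 weeks, and every library holds CD45+ cells, that is leukocytes, isolated from digested nasal mucosa. The labels name 4 treatments, Vehicle and Ribavirin, each alone and with OVA (Vehicle-OVA, Ribavirin-OVA). OVA stands for ovalbumin, used in the study as the model allergen, and ribavirin is an antiviral nucleoside analogue that the series title describes as a nasal spray. Each group has 1 library and the number of mice behind it is not given in the sources used here, so no difference between groups has a replicate check and no p-value is given. Where 4 values follow each other below, they are in the order Vehicle, Vehicle-OVA, Ribavirin, then Ribavirin-OVA.

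Dendritic cells sample antigen in tissue, mature, and then carry it through lymph vessels to the draining lymph node, where they present it to T cells. The maturing cell gains the chemokine receptor CCR7, which reads the lymph node chemokines, and fascin, the actin-bundling protein encoded by Fscn1, while it loses the receptors used to take up antigen. In mucosal tissue such cells are caught on the way out, and both conventional lineages, cDC1 and cDC2, can enter this state.

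To count the cells, the share of members among all cells kept was taken in each library. Vehicle held 144 members of 25727 cells (0.560%, exact 95% interval 0.472 to 0.659), Vehicle-OVA 34 of 17498 (0.194%, 0.135 to 0.271), Ribavirin 100 of 20278 (0.493%, 0.401 to 0.599) and Ribavirin-OVA 21 of 8817 (0.238%, 0.147 to 0.364). Both OVA libraries were lower than the library without OVA of the same treatment, by a ratio of 0.347 (0.232 to 0.507) with vehicle and 0.483 (0.286 to 0.779) with ribavirin. These Clopper-Pearson and conditional binomial intervals cover counting error only, here and below, and not the spread between mice.

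By the same measure the intervals of both ribavirin ratios held 1, at 0.881 (0.676 to 1.145) times the share for Ribavirin over Vehicle and 1.226 (0.676 to 2.17) for Ribavirin-OVA over Vehicle-OVA. Among cells with fewer than 10 UMIs over S100a8 and S100a9 and 0 of Cxcr2, which leaves out most neutrophils, the shares were 0.839%, 0.322%, 0.793% and 0.361%. This cut applied to the members as well, and left 141 of 144, 16 of 34, 94 of 100 and 21 of 21. The lower value of Vehicle-OVA thus rests in part on members that the cut took out, and the vehicle pair is not read by this measure. In the ribavirin pair the OVA library was lower among these cells too. As a share of the gated dendritic cells (members, cDC1 and cDC2 together) the members made up 27.3% (23.6 to 31.3) of 527 in Vehicle, 28.8% (20.9 to 37.9) of 118 in Vehicle-OVA, 20.2% (16.8 to 24.1) of 494 in Ribavirin and 19.8% (12.7 to 28.7) of 106 in Ribavirin-OVA. Within dendritic cells the OVA pairs had ratios of 1.05 (0.703 to 1.54) and 0.979 (0.580 to 1.58), so the other gated dendritic cells made up a lower share of the OVA libraries along with the members. By this measure the ribavirin libraries were lower than the vehicle libraries, with ratios of 0.741 (0.568 to 0.963) without OVA and 0.688 (0.379 to 1.22) with it, and the interval of the first lies below 1. In these gates cDC1 were cells with at least 2 UMIs over Xcr1 and Clec9a, and cDC2 cells with fewer of these and at least 2 UMIs of Cd209a, so that both are narrow subsets, and members were set apart first.

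**Figure D1:**
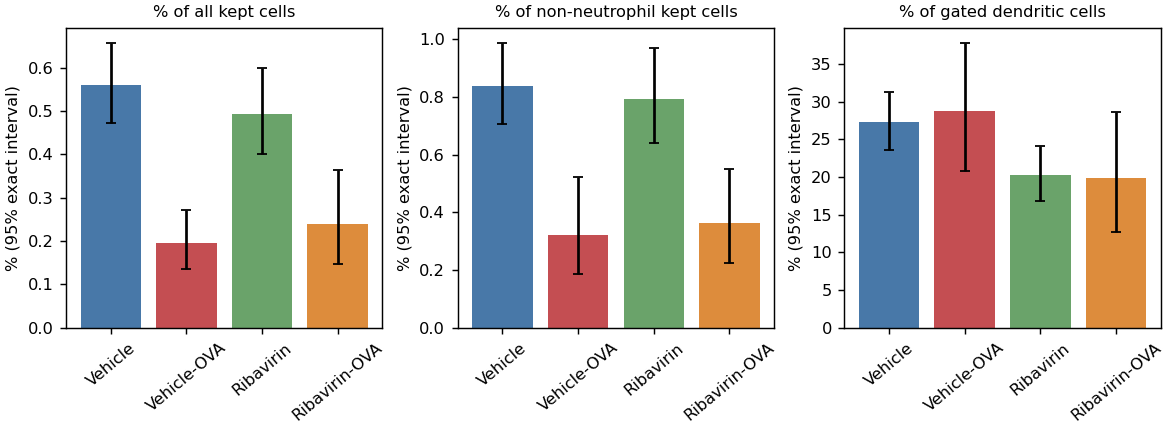
Share of members in each of the 4 libraries, in percent, among all kept cells, among non-neutrophil kept cells and among gated dendritic cells, with exact 95% intervals as bars. The non-neutrophil panel is not read for the vehicle pair, since its cut took out members of Vehicle-OVA. Among all cells the OVA libraries (0.194% and 0.238%) lie below the libraries without OVA (0.560% and 0.493%), whereas among dendritic cells the shares lie between 19.8% and 28.8%.

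The count in Ribavirin-OVA depended on the genes that exclude a cell. The log2 ratio of its share over that of Ribavirin was -1.05. It was -0.23 when cells were thinned to 2000 UMIs before the rule was applied. Without the exclusion genes the rule took 218, 68, 143 and 65 cells, and the share in Ribavirin-OVA was then 0.737% against 0.705% in Ribavirin and 0.389% in Vehicle-OVA. Thinned, Ribavirin-OVA was at 0.376% (28 of 7440 cells) against 0.25% in Vehicle-OVA. Before thinning, 17 of these 7440 cells (0.228%) were members. Thinning can add a member only by removing UMIs of the exclusion or complement genes. Of the 65 cells in Ribavirin-OVA, 21 held Cd79a, a B cell receptor subunit, and 22 held at least 2 UMIs of the complement genes, with some cells failing on more than 1 gene. B cells of that library also had Ccl22 at 317 CPM (UMIs of a gene per 1000000 UMIs) and an Fscn1 UMI in 29.7% of cells, against 4.52 CPM and 4.58% in Vehicle. The lower share in Vehicle-OVA was seen with and without the exclusion genes.

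Library depth ran from 91742940 to 171873110 UMIs over 27998 genes, and pairs of libraries shared 57 to 174 cell barcodes, none of them that of a member in both. The members had a median of 6148, 11334, 9347 and 10229 UMIs, more than the median kept cell of the same library (3432.5 to 5131.5). In all they held 989158, 354272, 931453 and 272607 UMIs, which is the depth behind each level below. Levels are UMIs summed over the members of a library and given as CPM of the members' total, and a UMI count in this 3' assay does not depend on transcript length.

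Some members carried many UMIs of other lineages. By a rule set after the data were seen, 22 members held many UMIs of neutrophil, keratin, T cell, B cell, NK cell or plasma cell genes: 6 in Vehicle, 4 in Vehicle-OVA, 10 in Ribavirin and 2 in Ribavirin-OVA. They made up 4.85%, 18.4%, 10.3% and 25.4% of the members' UMIs. In Vehicle-OVA all 4 held neutrophil RNA, and in Ribavirin-OVA a single cell with 65677 UMIs and 7787 genes held 24.1% of the members' UMIs. That cell had 53 UMIs of Krt5, 24 of Krt8, 365 of Ly6d, 14 of Fscn1 and 1 of Ccr7, with 3 of H2-Aa and 0 of Flt3. For neutrophil RNA the rule asked for at least 20 UMIs over S100a8 and S100a9. Only 16 of 34 Vehicle-OVA members had fewer than 10, against 141 of 144, 94 of 100 and 21 of 21 in Vehicle, Ribavirin and Ribavirin-OVA. Most Vehicle-OVA members with 10 or more such UMIs thus stayed in. The comparisons below were repeated without these 22 cells, and changes in the calls are given beside them. A gene whose UMIs then fell below 50 was not compared without them, and doublets were not removed by a caller.

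The summed marker lists of other cells show where this RNA lay. The 10 neutrophil genes summed to 576, 2826, 838 and 484 CPM, and to 293, 1128, 470 and 300 CPM without the 22 cells. The 9 genes of epithelium, neuron and stroma summed to 13.1, 0, 14.0 and 319 CPM, and to 6.37, 0, 12.0 and 14.8 CPM without them. Neutrophil RNA was thus highest in Vehicle-OVA either way, whereas the epithelial signal of Ribavirin-OVA was that of a single cell. The 12 macrophage and monocyte genes summed to 686, 432, 639 and 411 CPM and the 6 plasma cell genes to 273, 217, 290 and 367 CPM. The 7 genes of plasmacytoid dendritic cells summed to 303, 409, 335 and 1896 CPM, and to 301, 464, 345 and 639 CPM without the 22 cells. The T cell, B cell and NK cell lists stayed between 18.2 and 105 CPM, and all 7 mast cell and basophil genes were at 0.

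The gate itself was scanned for its lower edge. The 271 members with 8 or more UMIs over the 4 gate genes had a median of 8305 UMIs, with Tbc1d4 at 2021 CPM, whereas the 28 members with 4 to 7 had 1806.5 UMIs and Tbc1d4 at 925 CPM. Just outside, 20 cells with 2 or 3 had a median of 6530.5 UMIs, Tbc1d4 at 489 CPM and Ccl17 at 565 CPM. Members near the edge were thus shallow cells in which Tbc1d4 was lower.

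Of the 6 genes in the working label, 4 were part of the gate. Ccr7 stood at 2795, 3136, 2767 and 1845 CPM, Fscn1 at 1875, 2233, 1662 and 1886 CPM, and Cacnb3, a calcium channel subunit, at 408, 635, 403 and 371 CPM. The members held 21.9% to 45.7% of all Ccr7 UMIs and 22.5% to 53.6% of all Fscn1 UMIs of their libraries. Tbc1d4, a regulator of vesicle traffic that the gate did not use, stood at 1777, 2862, 1767 and 2175 CPM, against 77.4 to 125 CPM in cDC2 and 84.0 to 382 CPM in cDC1. It had a UMI in 90.5% to 94.4% of members and was high in every library.

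Ccl17, the other marker outside the gate, was not a steady mark of these cells. It stood at 491, 79.0, 469 and 268 CPM, with a UMI in 27.1%, 23.5%, 30.0% and 33.3% of members. In cDC2 it was at 511, 0, 278 and 4.25 CPM, so that without OVA the gated cDC2 held levels close to those of the members in Vehicle. Under OVA it was at 0 or near 0 in cDC2 and remained detectable in the members. Gated cDC1 held it at 164 CPM in Vehicle, 204 CPM in Vehicle-OVA and 95.5 CPM in Ribavirin. In Vehicle-OVA the level in cDC1 was thus above that of the members.

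To describe the state of the cells, members were set beside cDC2 gated in the same libraries. Of 8791 genes compared, 390 (4.44%) were more than 2-fold higher in members in all 4 libraries and 450 (5.12%) more than 2-fold lower. Against cDC1, 459 of 8151 genes (5.63%) were higher and 387 (4.75%) lower. The members were chosen from these same cells, so these are descriptions of the gated set and not tests.

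Serpinb6b, a serine protease inhibitor, had the highest ratio over cDC2 by the library where it was smallest, at 888, 703, 863 and 264 CPM against 1.42 to 7.24 CPM in cDC2. Cd200, a surface ligand that restrains myeloid cells through its receptor, was at 472, 703, 418 and 481 CPM against 0 to 14.2 CPM. Anxa3, an annexin that binds membranes in the presence of calcium, was at 459, 514, 393 and 433 CPM against 0 to 12.8 CPM. Gated cDC1 held Serpinb6b at 157, 168, 200 and 288 CPM, above the members in Ribavirin-OVA, and Cd200 at 16.5 to 25.7 CPM. Over cDC2 all of them were at least 4.62 higher on the log2 scale (CPM plus 5) in each library.

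Cytoskeletal and signalling genes followed the same pattern. Scin, an actin-severing protein, was 4.61 to 5.35 higher over the 4 libraries on the log2 scale, and Socs2, an inhibitor of cytokine receptor signalling, 4.50 to 5.28 higher. Ly75, the endocytic receptor DEC-205, was the exception among uptake receptors and was 4.16 to 5.07 higher. Apol7c was 4.42 to 5.91 higher, and Tmem123, a membrane protein, 3.43 to 4.02 higher at levels of 1466 to 3325 CPM. These genes were picked by their smallest ratio over the 4 libraries, over cDC2 or over all other kept cells. A shared direction in all 4 libraries is thus largely given by the choice.

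Maturation genes were the most uniform group. Of 20 genes for maturation and NF-kB signalling, all measured, 13 were more than 2-fold above cDC2 in every library and 0 below. They included Relb, the transcription factor of the alternative NF-kB pathway, at 574, 680, 568 and 404 CPM against 49.6 to 92.3 CPM in cDC2, the costimulatory receptor Cd40, and Cd83, a surface marker of mature dendritic cells. Traf1, an adaptor of TNF receptors, was 1.54 to 1.99 higher on the log2 scale. Of the 17 migration and cytoskeleton genes compared, 9 were above in every library and 5 below, and of 16 regulatory molecules 7 were above (Cd274, Cd200, Fas, Aldh1a2, Socs2, Il4i1 and Itgb8) and 2 below.

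**Figure D2:**
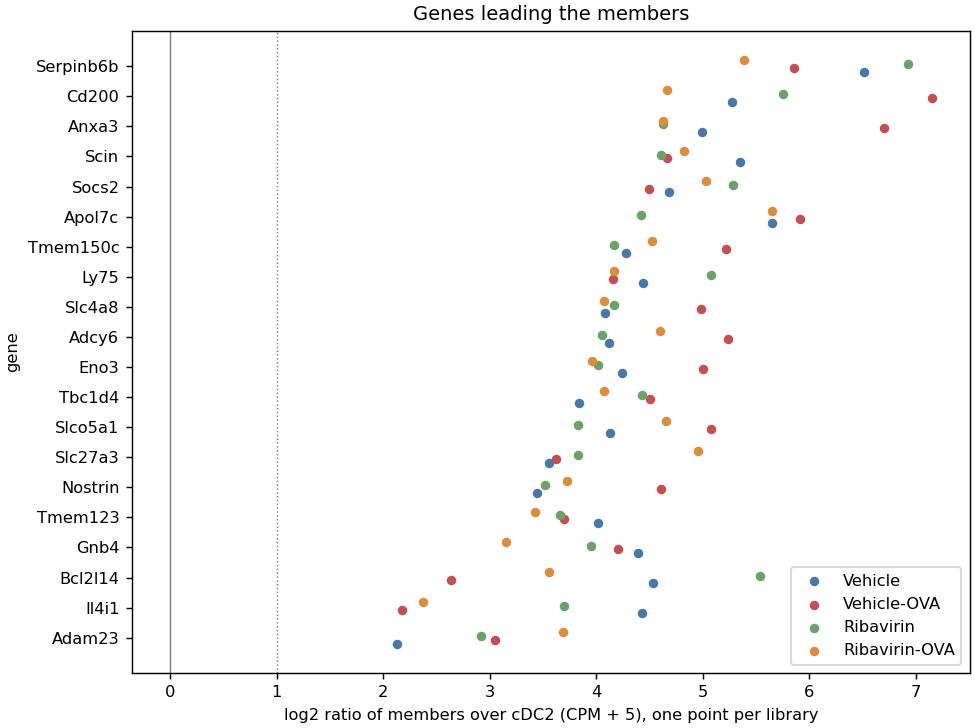
Log2 ratio of members over cDC2 (CPM plus 5) for leading genes, with 1 point for each library. The genes were picked by their smallest ratio over the 4 libraries, over cDC2 or over all other kept cells. That the points of a gene lie on the same side of 0 is thus largely given by the choice. They run from Serpinb6b (5.39 to 6.92) to Adam23 (2.13 to 3.69).

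Among the genes below cDC2, Ccr2, the receptor that brings monocyte-derived cells into tissue, was at 36.4, 2.82, 21.5 and 3.67 CPM, against 502 to 957 CPM. The lectin genes Mgl2, at 20.4 to 47.7 CPM against 288 to 881 CPM, and Clec10a, at 0 to 31.1 CPM against 267 to 338 CPM, were likewise low. Cd209a, a lectin by which the cDC2 were chosen, was at 0 to 8.09 CPM in members. Of 16 antigen uptake genes compared, 9 were more than 2-fold below cDC2 in every library and 1, Ly75, was above. Against cDC1, 4 of 15 were below in every library and 0 above, with list medians of -1.26, 0.004, -0.62 and -0.89. In cDC1, Mgl2 was at 12.8 to 102 CPM and Clec10a at 11.9 to 31.8 CPM. Of 9 macrophage and monocyte genes, 3 were below cDC2 and 0 above.

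Class II presentation was retained at a lower level. H2-Aa, a class II chain, stood at 5696, 4660, 5634 and 4230 CPM and had a UMI in 86.8% to 96.0% of members. H2-Ab1, its partner chain, was at 3718, 2371, 3999 and 2828 CPM against 6432 to 9116 CPM in cDC2. Of 14 class II genes 0 were above and 4 below cDC2 past 2-fold in every library, and of 14 class I genes 2 (H2-Q7 and Nlrc5) were above.

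The lineage of the members was mixed by RNA. Irf8, a factor needed for cDC1, was at 385, 449, 427 and 253 CPM, above the 32.6 to 91.2 CPM of cDC2, whereas Irf4, a factor of cDC2 and of migration, was at 26.3, 50.8, 30.1 and 40.4 CPM, below that of cDC2 (48.4 to 165 CPM) in every library. The cDC1 surface genes were nearly absent, with Xcr1 at 3.03, 0, 11.8 and 0 CPM. A UMI of the cDC1 genes Xcr1, Clec9a, Cadm1, Naaa or Wdfy4 was found in 36, 9, 33 and 9 members. A UMI of the cDC2 genes Cd209a, Mgl2, Clec10a or Sirpa was found in 42, 22, 35 and 14, and both in 16, 7, 20 and 8. These short sets are not the longer lists of origin genes used below. In 82, 10, 52 and 6 members there was neither, so most Vehicle and Ribavirin members could not be placed by these sparse genes, and depth differs between the libraries.

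To examine the response to OVA, members were compared in both pairs of libraries, over 5298 genes with at least 50 UMIs in all. A gene was called past 2-fold on the log2 scale of CPM plus 5, which understates the change of low genes. In Vehicle-OVA over Vehicle 687 genes (13.0%) were called higher and 375 (7.08%) lower, and in Ribavirin-OVA over Ribavirin 681 (12.9%) higher and 359 (6.78%) lower. Called in the same direction in both pairs were 203 genes (3.83%) higher and 109 (2.06%) lower. These shares are the background for every list count below, and single called genes are not read as a result about their list. Without the 22 cells with RNA of other lineages these were 246 (5.07%) and 128 (2.64%) of 4850 genes.

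The median gene was 0.24 higher in Vehicle-OVA over Vehicle and 0.22 higher in Ribavirin-OVA over Ribavirin on the log2 scale, and changes are best read relative to these shifts. Centred on the median the calls turned to 388 higher and 609 lower in the vehicle pair and 435 and 556 in the ribavirin pair. The 83 ribosomal protein genes had a median of -0.84 and -0.78 in the pairs, and longer transcripts stood higher than short ones (median 0.54 and 0.45 in the longest 10% against -0.19 and -0.10 in the shortest 10%). The part of transcript length and of these abundant genes in the calls was not tested.

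The T cell chemokine and cytokine genes Ccl5 and Il12b, and the costimulatory gene Cd70, were lower under OVA in both pairs. Ccl5, which draws effector T cells, was at 4708 CPM in Vehicle, 821 in Vehicle-OVA, 5149 in Ribavirin and 187 in Ribavirin-OVA. The OVA libraries were both below both libraries without OVA. The ratios were 0.174 (0.154 to 0.196) and 0.0363 (0.0270 to 0.0479), and 0.178 and 0.0471 without the 22 cells.

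The difference in Ccl5 was seen from cell to cell. The median member held 21.4 Ccl5 UMIs per 10000 in Vehicle, 5.36 in Vehicle-OVA, 11.9 in Ribavirin and 0.978 in Ribavirin-OVA, and the highest held 556, 48.8, 564 and 12.3. After each cell was thinned to 2000 UMIs, which left out 20, 5, 3 and 4 members, a Ccl5 UMI was found in 75.8%, 51.7%, 68.0% and 29.4% of members, against 88.2%, 67.6%, 81.0% and 61.9% before thinning. Ccl5 was not lower in members alone: in T cells it was at 1843, 987, 1151 and 641 CPM, in macrophages at 1381, 307, 1096 and 197 CPM and in cDC2 at 136, 18.1, 129 and 24.1 CPM. Whether the difference in members was larger than in these cells was not tested.

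Il12b encodes the p40 subunit of interleukin-12 and interleukin-23, which drive T helper 1 and T helper 17 responses. It was at 199 CPM in Vehicle, 0 in Vehicle-OVA, 369 in Ribavirin and 44.0 in Ribavirin-OVA, from 197, 0, 344 and 12 UMIs. It was found in 35 of 144, 0 of 34, 18 of 100 and 1 of 21 members, so both OVA libraries were below both others. Vehicle-OVA was at least 23.5-fold lower than Vehicle, taking 3 UMIs as the limit that a count of 0 allows, and Ribavirin-OVA was at 0.119 (0.0610 to 0.211) times Ribavirin.

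Members held 18.6% of all Il12b UMIs of the Vehicle library and 40.1% of those of Ribavirin. In the other gated cells Il12b was at 14.4, 8.40, 22.2 and 11.0 CPM in cDC1, 0 in cDC2 and 10.5, 1.29, 7.31 and 2.22 CPM in macrophages. Members were thus above these cells in 3 libraries and below cDC1 and macrophages in Vehicle-OVA. Thinned to 2000 UMIs, Il12b was seen in 16.9%, 0%, 14.4% and 5.88% of members, and with 29 cells left in Vehicle-OVA a count of 0 has an exact upper bound of 11.9%. Ccl5 was found in 32, 0, 17 and 1 of the 35, 0, 18 and 1 members with Il12b, beside a Ccl5 UMI in 88.2% of all Vehicle members and 81.0% of all Ribavirin members. The thinned shares of the OVA libraries rest on 29 and 17 cells.

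Cd70, the ligand of the T cell receptor CD27, was at 28.3, 0, 36.5 and 0 CPM, in 15, 0, 16 and 0 members. This places the OVA libraries at least 3.34-fold and 3.32-fold lower. Over the list of T cell costimulatory ligands 9 of 18 genes had enough UMIs, and Cd70 was the 1 gene lower in both pairs, with 0 higher in both. The list medians were -0.12 and -0.91 on the log2 scale. Tnfsf4, the OX40 ligand that favours T helper 2 cells, was at 40.4, 36.7, 26.8 and 7.34 CPM, with 84.6% of the Vehicle-OVA UMIs in 1 cell and 2 UMIs in all in Ribavirin-OVA.

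Chemokines beyond Ccl5 split into lower and higher genes. Cxcl9 and Cxcl10, interferon-induced ligands of the T cell receptor CXCR3, stood at 279, 59.3, 277 and 0 CPM and at 40.4, 11.3, 142 and 0 CPM. Vehicle-OVA was at 0.212 and 0.279 times Vehicle, and Ribavirin-OVA at least 25.2-fold and 12.9-fold lower than Ribavirin. Cxcl9 was lower under OVA in the other gated classes too, for example at 674, 102, 398 and 118 CPM in macrophages.

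Ccl17, a ligand of the receptor CCR4 of T helper 2 and regulatory T cells, was at 0.161 (0.106 to 0.236) times Vehicle in Vehicle-OVA and at 0.571 (0.439 to 0.733) times Ribavirin in Ribavirin-OVA. A single member held 29.2%, 46.4%, 36.2% and 50.7% of the Ccl17 UMIs of its library. These ratios thus rest on few cells, and their intervals do not cover the spread between cells. Ccl22, the other CCR4 ligand, was part of the gate and is given as a description, at 1029, 675, 735 and 271 CPM. Ccl17 was found with Ccl22 in 35, 8, 30 and 7 members and without it in 4, 0, 0 and 0, in cells that the gate chose in part by Ccl22. Thinned to 2000 UMIs the order for Ccl17 differed, at 19.4%, 10.3%, 13.4% and 35.3% of members, and no order is read from those shares.

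Ccl24, the eosinophil chemokine eotaxin-2, had the largest ratio among higher genes, at 0, 76.2, 2.15 and 517 CPM. Macrophages of the same libraries stood at 2.40, 2537, 12.3 and 1475 CPM, and T cells, which should lack it, at 0.361, 94.1, 0.516 and 45.8 CPM. Gated cDC2 were at 0.735, 711, 2.51 and 408 CPM. The level in Vehicle-OVA members lay below that of T cells and cDC2 and above that of cDC1 (11.2 CPM) and B cells (24.1 CPM). In Ribavirin-OVA the level in members lay above those of T cells and cDC2. No expression by the members is read from Ccl24. A single cell held 18 of the 27 UMIs in Vehicle-OVA, and 66% of the UMIs in Ribavirin-OVA. Ccl6 was higher in both pairs, at 19.2, 102, 10.7 and 33.0 CPM. Over the 10 chemokines compared, 2 were higher (Ccl6 and Ccl24) and 3 lower in both pairs, and the list medians of 2.61 and -1.45 became 0.67 and -0.73 without the 22 cells, where Ccl6 fell below 50 UMIs (log2 ratios of 1.18 and 2.01) and Ccl24 was the 1 gene higher in both. Without doublet-like members (at least 3 UMIs of T cell, B cell, neutrophil, NK cell or plasma cell genes, or a total above the 99th percentile of kept cells), which were 37, 13, 28 and 6, the median of the vehicle pair was -0.06.

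Among the cytokines, 8 of 17 genes could be compared and Il12b was the 1 called in the same direction in both pairs. The median of the list was 0.53 in the vehicle pair and -1.56 in the ribavirin pair, or -1.31 with genes at 0 set to their bound, and -0.41 and -0.96 without the 22 cells, when Il6 was called higher in both pairs (1.89 and 1.24 on the log2 scale). Il1b was at 1372, 1293, 1469 and 426 CPM. Ebi3, which pairs with other subunits to form interleukin-27 and interleukin-35, was at 82.9, 25.4, 52.6 and 14.7 CPM, with ratios of 0.307 and 0.279.

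Flt3, the receptor that sustains dendritic cells, was at 150 CPM in Vehicle, 353 in Vehicle-OVA, 157 in Ribavirin and 360 in Ribavirin-OVA, with ratios of 2.36 and 2.29. Its level was also higher under OVA in cDC1 (173, 417, 222 and 490 CPM) and cDC2 (104, 219, 120 and 386 CPM). Socs2 was at 472, 1005, 398 and 807 CPM, with ratios of 2.13 and 2.03, the second of which was 1.83, under 2-fold, without the 22 cells. Both genes were above the range of the libraries without OVA in both OVA libraries.

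Cish, which like Socs2 is induced by STAT5 and damps cytokine receptors, was at 7.08, 62.1, 15 and 55.0 CPM. Its ratios were 8.78 (3.62 to 24.3) and 3.66 (1.65 to 8.19). It was the 1 gene called in both pairs among 16 compared in the list of type 2 response genes and receptors, whose medians were 0.53 and 0.37. Without the 22 cells Cish fell below 50 UMIs and was not compared (its log2 ratios were 2.78 and 1.61), and Il10ra, an interleukin-10 receptor chain, was the 1 gene of the list called in both pairs, higher at 1.05 and 1.13 on the log2 scale. Crlf2, the receptor chain for the epithelial cytokine TSLP, was at 43.5, 19.8, 53.7 and 25.7 CPM, with ratios of 0.455 and 0.478, and with the pseudocount it was not called.

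Sirpa, a cDC2 surface protein that binds CD47, was at 65.7, 226, 53.7 and 180 CPM, with ratios of 3.44 and 3.35. The 5 cDC1 origin genes that could be compared had medians of -0.03 and -0.74, and Cst3, the protease inhibitor cystatin C, and Ifi205 were lower in both pairs. Cst3 was at 10757, 3997, 10489 and 2704 CPM, and the median member held 71.1, 38.8, 60.8 and 7.94 UMIs per 10000. The 10 cDC2 origin genes had medians of 0.27 and 0.60 (0.37 in the vehicle pair with genes at 0 at their bound), with Sirpa higher in both and 0 lower in both. Sirpa was thus 1 of 10 genes, and Cst3 and Ifi205 2 of 5, called in both pairs. No change in lineage is read from these single genes. A shift between cDC1-derived and cDC2-derived members and a shift within members cannot be told apart.

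Cd44, a receptor for hyaluronan used in adhesion, was at 96.0, 497, 121 and 664 CPM, with ratios of 5.17 (4.01 to 6.71) and 5.47 (4.30 to 6.99). A Cd44 UMI was found in 21.5%, 73.5%, 37.0% and 81.0% of members, and the median member held 0, 3.51, 0 and 7.21 UMIs per 10000. In the other classes Cd44 was higher under OVA too, at 195, 541, 209 and 371 CPM in T cells and 128, 317, 178 and 254 CPM in cDC2. Cd52, a small surface glycoprotein of leukocytes, and Aif1, an actin-binding calcium sensor of myeloid cells, went the other way. Cd52 was at 1658, 313, 1390 and 345 CPM and Aif1 at 262, 48.0, 185 and 33.0 CPM, and both were lower under OVA in cDC1, cDC2, macrophages, T cells, B cells and neutrophils.

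**Figure D3:**
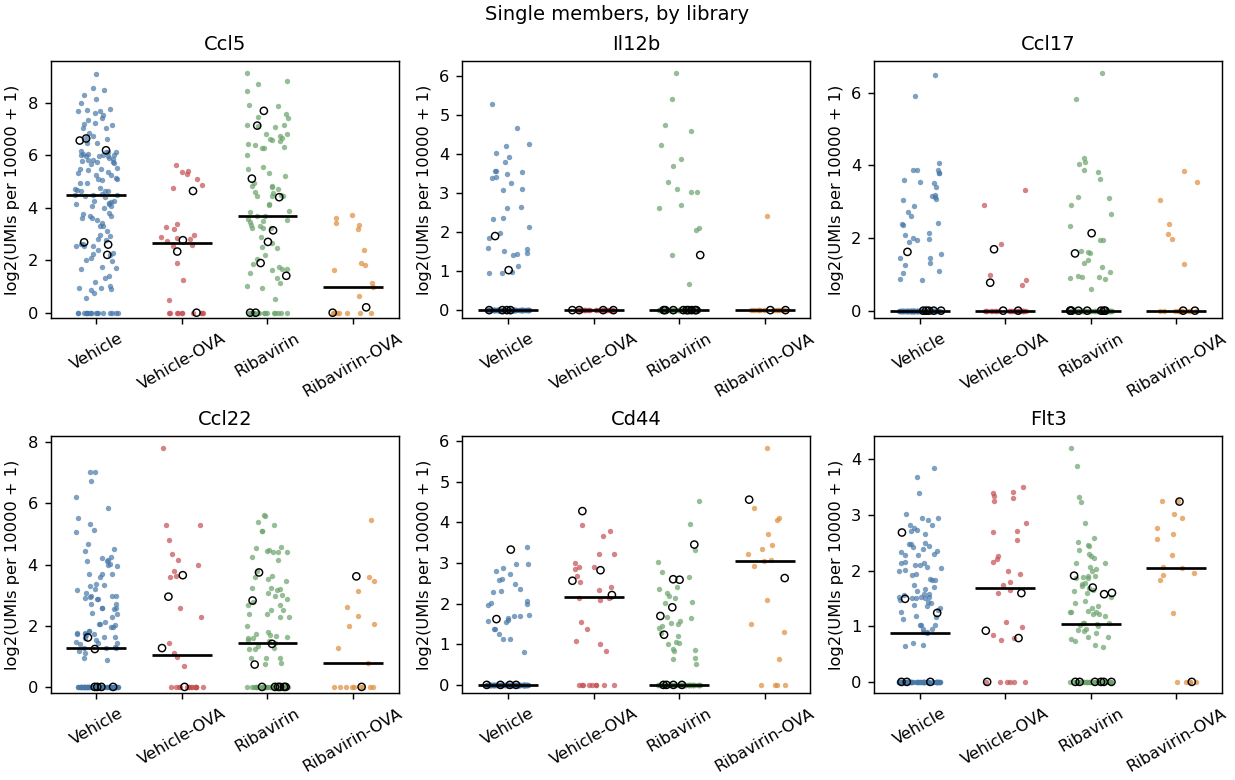
Single members as points, by library, for selected genes on the scale log2(UMIs per 10000 + 1). Black lines are medians and open points the members with RNA of other lineages, Ccl5 lies lower in the OVA libraries (median 5.36 and 0.978 UMIs per 10000 against 21.4 and 11.9), and Cd44 and Flt3 lie higher.

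Other genes with the largest differences need their cells named. Fabp4, a fatty acid carrier, was at 4.04, 217, 11.8 and 158 CPM, but in only 1, 5, 5 and 7 members. In Ribavirin-OVA the higher values of Abca1, F3, Qsox1, Hmox1 and Mapk6 came mostly from the cell with epithelial RNA, and without the 22 cells their log2 ratios in the ribavirin pair were 1.26, 0.28, 0.54, 0.79 and 1.38. The lower Gzma value rested on 1 cell in the libraries without OVA, and without the 22 cells its log2 ratios were 0.48 and 0.99, in the other direction. Clcn5, an endosomal chloride transporter, was at 17.2, 113, 11.8 and 69.7 CPM, and macrophages were at 16.1, 89.9, 16 and 74.5 CPM. Kif1a, a kinesin motor, was at 6.07, 42.3, 8.59 and 77.0 CPM.

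The maturation genes as a group were not called lower or higher. Of 20 genes, 2 were lower in both pairs, Bcl2a1b and Bcl2a1d, and 0 higher, with medians of 0.28 and -0.33. Bcl2a1b, a survival protein of the BCL2 family, was at 1905, 692, 1775 and 547 CPM, with ratios of 0.363 and 0.308. These genes are near-identical copies, so reads can be split between them by the authors' counting. Without the 22 cells Nfkb1 and Birc3 were called higher in both pairs, and Nfkb1, a subunit of NF-kB, was at 218, 677, 245 and 484 CPM over all members.

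Cd274, the checkpoint ligand PD-L1, was at 276, 785, 429 and 426 CPM. It was thus 2.84 times higher in the vehicle pair and 0.991 times Ribavirin in the ribavirin pair. Cd274 was also higher in Vehicle-OVA than in Vehicle in cDC1, cDC2, macrophages, T cells, B cells and neutrophils. It was at 175 and 826 CPM in neutrophils, 76.7 and 172 CPM in macrophages and 50.7 and 90.4 CPM in cDC2. Thinned to 2000 UMIs a Cd274 UMI was found in 48.4%, 65.5%, 47.4% and 64.7% of members. Il4i1, an amino acid oxidase that limits T cells, was at 633, 1090, 750 and 983 CPM, with ratios of 1.72 and 1.31, and was therefore not called. Over 13 regulatory molecules compared, Socs2 was the 1 gene higher and Ebi3 the 1 gene lower in both pairs, and without the 22 cells only Ebi3 was called in both.

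Among migration genes, Marcks, an actin-binding substrate of protein kinase C, was at 1248, 3339, 1458 and 2594 CPM, with ratios of 2.67 and 1.78. Gpr183, a receptor for oxysterols that positions dendritic cells, was at 281, 737, 392 and 624 CPM, with ratios of 2.62 and 1.59. Of 15 genes compared Ccr2 was the 1 called in both pairs, lower, and without the 22 cells Marcks and Gpr183 were called higher in both, and Ccr2 fell below 50 UMIs (log2 ratios of -3.04 and -0.30).

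The 13 class II genes compared had medians of -0.55 and -0.50, with Lgmn higher in both pairs and H2-Ob lower in both. H2-Eb1 was at 5011, 2600, 5059 and 2476 CPM. Lgmn, an endosomal protease, was at 92.0, 257, 85.9 and 238 CPM, with ratios of 2.79 and 2.78. Without the 22 cells the medians were -0.63 and -0.14, and Lgmn was called in both pairs but H2-Ob was not (-1.08 and -0.85 on the log2 scale). The 14 class I genes had medians of 0.00 and -0.42, and none was called in both pairs.

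Antigen uptake genes held 8 to compare, with Ctsd, a lysosomal protease, higher in both pairs and Lyz2, a macrophage and neutrophil lysozyme, lower in both. Their medians were 1.21 and -0.24. Glycolysis genes had medians of 0.87 and 0.46, with Hk2 and Eno1 higher in both pairs, and with none in both pairs without the 22 cells. Among 14 genes of cholesterol synthesis and efflux the medians were 0.51 and 0.37, with Scd2, Abca1 and Abcg1 higher and Fdps lower in both. Without the 22 cells Idi1, Insig1, Scd2 and Abcg1 were higher and Fdps lower in both. Scd2, a fatty acid desaturase, was at 37.4, 107, 32.2 and 224 CPM, and Abcg1, a cholesterol exporter, at 64.7, 158, 45.1 and 99 CPM.

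The 10 conventional dendritic cell core genes had medians of 0.26 and -0.24, with Flt3 higher in both. The 7 cell cycle genes had medians of -1.01 and 0.67, with no gene called the same way in both pairs. The 7 stress granule genes had medians of 0.72 and 0.82 and none was called in both pairs. G3bp1, the granule scaffold, was at 165, 282, 146 and 268 CPM, with ratios of 1.71 and 1.83 that lie under 2-fold. The 19 dissociation stress genes had medians of 0.07 and 0.17, with Ier3 higher in both.

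**Figure D4:**
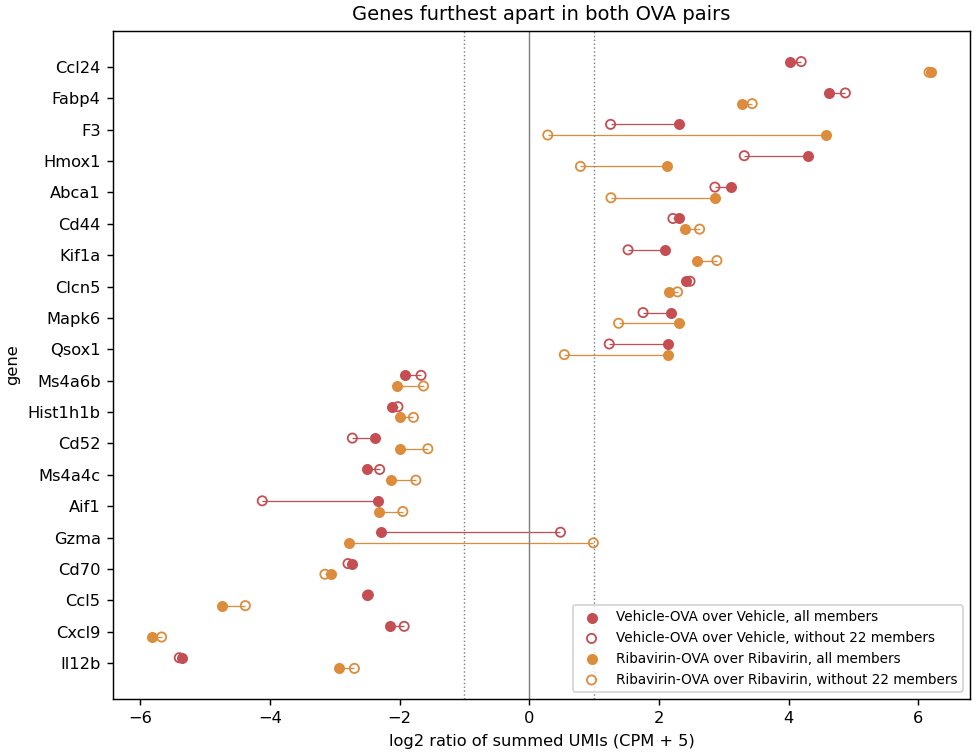
Log2 ratio (CPM plus 5) of members in the OVA library over the library without OVA, for the vehicle pair and the ribavirin pair, with all members as filled points and without the 22 members holding RNA of other lineages as open points. Il12b, Ccl5 and Cd70 lie below 0 in both pairs and Cd44 above, while for genes such as Gzma the open points lie on the other side of 0.

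Interferon-stimulated genes were counted in each OVA pair, and the difference between the pairs was not tested. Of 25 genes compared, Vehicle-OVA had 6 higher and 2 lower than Vehicle (median 0.46), whereas Ribavirin-OVA had 0 higher and 9 lower than Ribavirin (median -0.46). Over all genes compared, 13.0% were higher and 7.08% lower in the vehicle pair, and 12.9% and 6.78% in the ribavirin pair. Isg15, a ubiquitin-like protein, was at 279, 158, 398 and 62.4 CPM. Ifit1, which binds viral RNA, was at 10.1, 31.1, 90.2 and 11.0 CPM, and Irf7, the regulator of type I interferon genes, at 15.2, 22.6, 80.5 and 22 CPM. Ribavirin stood highest for all of them, and Cxcl10 was the 1 gene called in both pairs, lower. Without the 22 cells, of 22 genes compared, the vehicle pair had 3 higher and 3 lower genes (median 0.28, against 0.26 over all genes) and the ribavirin pair 0 and 8 (median -0.45). Isg15, Cxcl10 and Zbp1 were then lower in both pairs.

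To examine ribavirin, members were compared between treatments with the same OVA state. In Ribavirin over Vehicle 80 genes (1.51%) were called higher and 23 (0.434%) lower, and in Ribavirin-OVA over Vehicle-OVA 486 (9.17%) higher and 375 (7.08%) lower. The OVA pair rests on 21 and 34 cells, so its larger counts come with fewer UMIs per gene. Interferon-stimulated genes had 7 higher and 0 lower in Ribavirin over Vehicle (median 0.63) and 1 higher and 8 lower in Ribavirin-OVA over Vehicle-OVA (median -0.42). Without the 22 cells these were 5 and 0 (median 0.51) and 0 and 5 (median -0.14) of 22 genes compared. These pairs share their libraries with the OVA pairs above.

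The genes that were higher with ribavirin in both comparisons were odorant-binding and lipocalin genes of nasal gland secretions. Obp1a was at 54.6, 2.82, 658 and 360 CPM in the members, and Obp2a at 12.1, 0, 328 and 128 CPM. Obp1b, Mup4 and Lcn11 followed them. Gated cDC2 had Obp1b at 27.2, 3.62, 747 and 247 CPM against 49.5, 14.1, 583 and 411 CPM in members. Every gated class of the Ribavirin library held Obp1a, from 944 CPM in cDC2 and 1059 in cDC1 to 10562 in T cells and 17352 in neutrophils, all above the members. No expression by the members is read from these genes, and the source of the RNA was not tested.

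Genes lower with ribavirin in both comparisons were few and low. Casc1 was at 40.4, 48.0, 9.66 and 7.34 CPM, with 0 to 0.735 CPM in cDC2. Il6, an inflammatory cytokine, was at 23.3, 84.7, 8.59 and 22 CPM. Dclre1a, a DNA repair nuclease, was at 33.4, 48.0, 14.0 and 18.3 CPM. Both ribavirin libraries were below both vehicle libraries for these genes, from 40 UMIs or fewer per library.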

How the data were processed

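The authors deposited raw UMI counts per gene and cell barcode for each of the 4 libraries (called cells, no normalization). The submitters' processing notes name Cell Ranger 5.0.0 and mm10. Cells with at least 500 UMIs, at least 200 genes and under 10% mitochondrial UMIs were kept. The members and gene lists were chosen with earlier results of these data known. Counts of members were summed per library and divided by their total (CPM). Genes with at least 50 UMIs over the members were compared as log2 ratios with a pseudocount of 5 CPM, and a gene past 2-fold was called. With 1 library per group no test was run. Intervals are exact at the 95% level and the floor of a count of 0 was 3 UMIs. Other cell classes were gated on raw UMIs of their markers, and doublets were not removed by a caller. Scripts used Python 3.11.15 with numpy 2.4.6, scipy 1.17.1 and pandas 2.3.3 and were tested on simulated data.

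Genes named are the gate and label genes, for each list its genes with the most UMIs and those called the same way in both OVA pairs, the 10 largest differences each way over both OVA pairs and the 5 each way over both ribavirin pairs, and the leading genes over other cells. Further list genes, such as Nfkb1, Il6 and Isg15, were named after their values were seen, and 1 gene that the rule names is not reported here. Of the genes on the 30 lists, 5 were not found under a unique symbol. Alternatives were a pseudocount of 1 or 20 CPM, a minimum of 20 or 200 UMIs, means of single-cell CPM, thinning, and other gates, plus 2 chosen after seeing the data, no exclusion genes and leaving out the 22 members with RNA of other lineages.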

Additional observations from a re-analysis of the deposited data

Results flagged for a closer look

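For some list genes the vehicle and ribavirin OVA pairs passed 2-fold in opposite directions, and the difference between the pairs was not tested. Values are log2 ratios, Vehicle-OVA over Vehicle first and Ribavirin-OVA over Ribavirin second. Among neutrophil-list genes these were 1.18 and -2.04 for Il1r2, 2.42 and -1.65 for S100a8 and 2.01 and -2.22 for S100a9, and without the 22 members holding RNA of other lineages they were 1.53 and -1.46, 1.95 and -0.64, and 1.87 and -1.09. Among chemokine genes and the receptor Ccr1, values were 3.37 and -2.32 for Cxcl2, 4.28 and -1.28 for Ccl3, 3.09 and -1.62 for Ccl4 and 1.69 and -2.06 for Ccr1. Without those members Ccl3 and Ccl4 were at 0.44 and 0.74 in the ribavirin pair, in the other direction.

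Cell cycle genes went the other way, with -2.30 and 1.73 for Top2a and -1.77 and 1.74 for Birc5. Of the 39 Top2a UMIs in Ribavirin-OVA members, 37 lay in 1 cell. The interferon-stimulated genes Rsad2 (2.70 and -2.60) and Ifit1 (1.25 and -2.57) were higher in the vehicle pair and lower in the ribavirin pair. Without those members Rsad2 was at 1.34 and -2.40 and Ifit1 at -0.39 and -2.81.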

How the results depend on the processing

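The log2 ratio of the member share for Ribavirin-OVA over Ribavirin was -1.05. It was -0.23 when cells were thinned to 2000 UMIs and 0.064 without the exclusion genes, and 38 of the other member share values stayed within the interval of the reported value. The numbers of genes past 2-fold were 1062, 1040, 103 and 861 for Vehicle-OVA over Vehicle, Ribavirin-OVA over Ribavirin, Ribavirin over Vehicle and Ribavirin-OVA over Vehicle-OVA. They were 568, 615, 38 and 429 with a pseudocount of 20 CPM, 1664, 1799, 236 and 1651 with genes of at least 20 UMIs, and 351, 282, 18 and 173 with genes of at least 200 UMIs. Ribavirin over Vehicle had 175 with a pseudocount of 1 CPM and 191 from means of single-cell CPM, and Ribavirin-OVA over Vehicle-OVA had 1317 from the latter. Without members holding RNA of other lineages the numbers were 1004, 1047, 83 and 677. List medians that changed sign were T cell, Ribavirin-OVA over Ribavirin, at -0.82 with genes of at least 20 UMIs, cytokines, Ribavirin-OVA over Vehicle-OVA, at 0.85 with genes of at least 200 UMIs, cell cycle in the same pair at -0.015 with a gate sum of at least 8 UMIs, NK and innate lymphoid cell, Ribavirin-OVA over Ribavirin, at 0.71 without members holding RNA of other lineages, and chemokines, Vehicle-OVA over Vehicle, at -0.056 without doublet-like members. The last setting also turned Ccl17 and Aldh1a2 in Ribavirin-OVA over Vehicle-OVA, to -0.34 and 0.36. The cause was not tested for these changes. Of the other values, 880 list medians and 1339 single genes stayed near their main value, and 95 and 79 moved. No paired analysis was possible because each group has 1 library, and for the same reason no library could be left out. The members number 34 and 21 in the OVA libraries, which limits every low gene there.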
